A study of Mus musculus with 6 samples.

Results

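The 9 genes described here carry the natriuretic peptide, angiotensin and endothelin signals that pass between cardiomyocytes, endothelial cells and cardiac fibroblasts (CFs). They were chosen by symbol, for their role in these signals, from the 49548 genes of the count table. They comprise the natriuretic peptide receptors Npr1, Npr2 and Npr3, the angiotensin II receptor Agtr1a with the angiotensin-converting enzyme Ace, and the endothelin-1 gene Edn1 with the receptors Ednra and Ednrb and the endothelin-converting enzyme Ece1. All 9 were present and passed the filter on low counts, which kept 15789 genes with at least 10 reads in at least 2 libraries.

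Charme is a long non-coding RNA expressed in cardiomyocytes. The study compared poly(A) RNA of native CFs from 3 wild-type (WT) and 3 CharmeKO samples of C57BL/6J mice aged 5 weeks, to ask how loss of the transcript touches the fibroblasts of the heart. The CharmeKO allele carries a polyadenylation signal inserted in the Charme locus of every cell, so it is not restricted to any cell type. The native CFs are the heart cells left after enzymatic dissociation, red cell lysis and immunomagnetic depletion of hematopoietic lineages. No positive sort for fibroblasts followed, and the sample labels list a plate culture medium although the methods describe freshly isolated cells. Nothing in the labels says whether a library is 1 heart, so the p-values measure the spread between these libraries.

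Natriuretic peptides bind guanylyl cyclase receptors that make cyclic GMP, and a clearance receptor removes them. Angiotensin-converting enzyme makes angiotensin II, which acts on fibroblasts and smooth muscle through the type 1 receptor. Endothelin-1 is secreted mainly by endothelial cells, is cut to its active form by endothelin-converting enzyme, and acts through a type A and a type B receptor. In the heart, natriuretic signals are known to restrain fibroblast growth and matrix production, whereas angiotensin II and endothelin-1 are known to promote them.

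The libraries held 9595701 to 42101393 assigned reads, WT replicate 3 being the shallowest. Charme had 26, 15 and 4 reads in the WT libraries and 7, 0 and 0 in the CharmeKO libraries, so the check of the targeted gene rests on few reads. Fibroblast markers were high throughout, with Pdgfra at 361 to 464 normalized CPM (counts scaled to the total of each library after TMM normalization) and the list of 10 summing to 28204 to 35724 CPM in WT and 28739 to 32106 CPM in CharmeKO. Gsn alone, at 17330 to 26439 CPM, made up most of that sum. None of the 10 passed the test. The groups did not overlap for 4 of the 10, beside 18.2% of all tested genes. These were Col15a1 (fold 0.574), Mfap5 (0.647) and Pi16 (0.787) with lower and Dcn (1.23) with higher values in CharmeKO. Endothelial markers were high as well. By flow cytometry the study tested that its cells lacked the surface markers CD45 (hematopoietic) and CD309 (vascular) and carried CD90 and Sca1. As RNA, Kdr, which encodes CD309, lay between 795 and 1224 CPM, and Cdh5 between 1737 and 2312 CPM. These libraries are therefore described as the native stromal fraction that the labels call CFs, and in such bulk RNA fewer cells of a type and less RNA per cell cannot be told apart. Leukocyte markers summed to 28.6 to 53.5 CPM, whereas hemoglobin and other erythroid markers summed to 24397 to 39184 CPM.

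Per kilobase of annotated exon, the 9 genes spanned a wide range of levels. Ace stood highest at 160 ± 53.8 CPM per kb (mean ± SD over all 6 libraries, as for the values that follow) and Ece1 stood next at 151 ± 16.8, so the 2 converting enzymes led the order and their libraries overlapped. The 2 guanylyl cyclase receptors followed, Npr1 at 44.0 ± 6.75 and Npr2 at 36.5 ± 7.80 CPM per kb, and these also overlapped. Ece1 was 3.42 times as high as Npr1, with no overlap between libraries. Ednrb, at 17.8 ± 3.50, overlapped with its ligand Edn1, at 12.9 ± 3.28 CPM per kb. The clearance receptor Npr3 (5.19 ± 0.362), Ednra (3.56 ± 0.438) and Agtr1a (1.11 ± 0.382 CPM per kb) closed the order without overlap between neighbours. The endothelin B receptor was thus present at a higher level per length than the A receptor in every library, and the cyclase receptor Npr1 at a higher level than the clearance receptor Npr3.

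**Figure D1:**
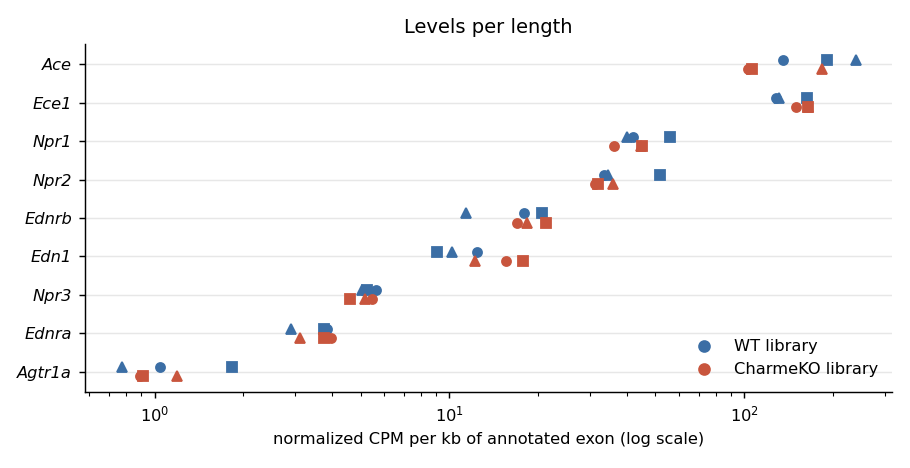
Level of each gene per length, as normalized CPM per kb of annotated exon on a log axis, with 1 point per library (blue WT, red CharmeKO; circle, square and triangle mark replicates 1, 2 and 3). Ace and Ece1 lie above 100 CPM per kb in every library, and the libraries of neighbouring genes overlap for Ace with Ece1, Npr1 with Npr2, and Ednrb with Edn1.

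Between genotypes, 0 of the 9 genes passed the test (edgeR adjusted p under 0.05), where 131 of the 15789 tested genes, or 0.830%, did. Edn1 alone had an unadjusted p under 0.05, that is 1 of 9 beside 12.8% of all tested genes. The WT and CharmeKO libraries overlapped for all 9 genes, so 0 of 9 had separate groups, beside 18.2% of all tested genes. Of the 9 genes, 4 had a higher and 5 a lower mean in CharmeKO, and their median log2 fold change (CharmeKO over WT) was -0.066, beside 0.0097 over all tested genes.

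**Figure D2:**
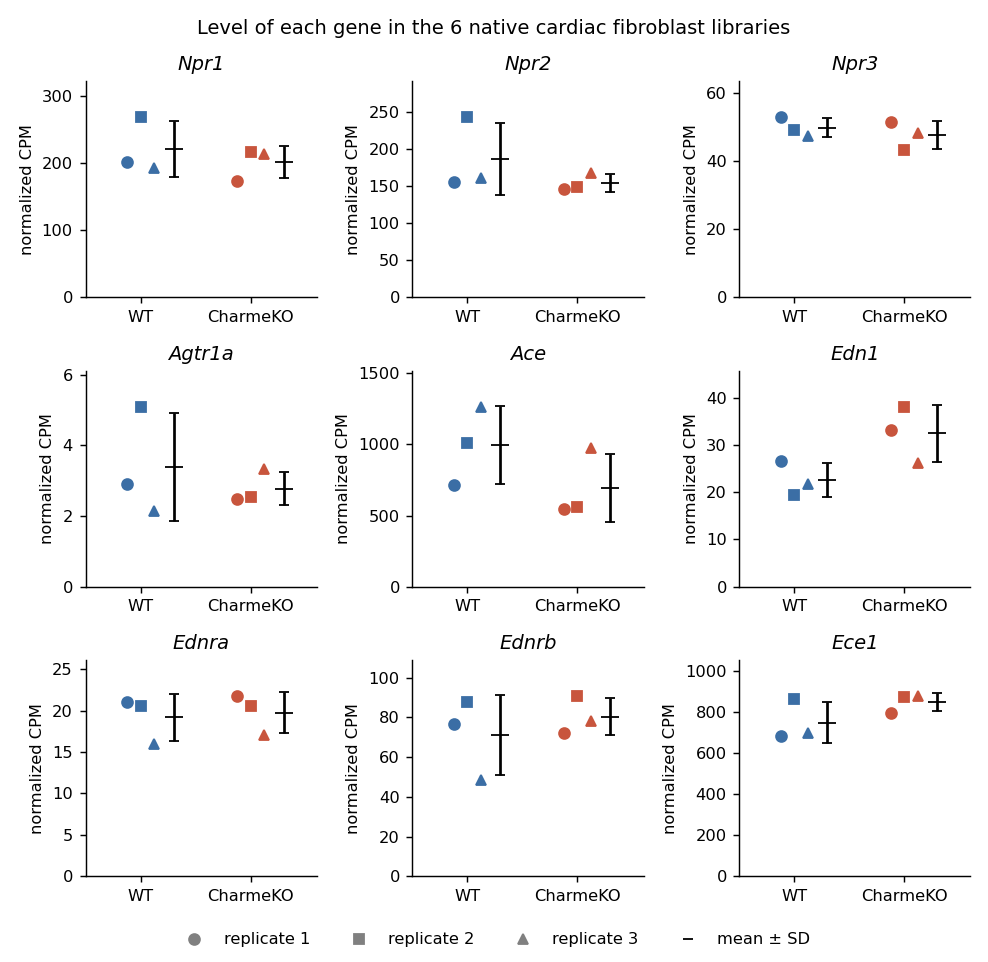
Normalized CPM of the 9 genes in each WT (blue) and CharmeKO (red) library, with symbols for the replicate number and black bars for the group mean ± SD (n = 3). The 2 groups overlap in every panel; the widest spread within a group, in CPM, is that of Ace, and Edn1 has 2 CharmeKO libraries above every WT library.

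Npr1 encodes the guanylyl cyclase receptor of atrial and B-type natriuretic peptide. Its level was 201, 268 and 192 CPM in WT replicates 1 to 3, and 173, 216 and 213 CPM in CharmeKO replicates 1 to 3. WT replicate 2 was the highest and CharmeKO replicate 1 the lowest, and the groups overlapped. The fold change was 0.911 (95% confidence interval 0.721 to 1.15, adjusted p = 0.778), and its log2 value of -0.13 ± 0.15 (SE) became 0.030 without WT replicate 2.

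Npr2 encodes the guanylyl cyclase receptor of C-type natriuretic peptide, a peptide that acts locally on stromal cells. It measured 156, 243 and 161 CPM in WT and 145, 149 and 168 CPM in CharmeKO. Again WT replicate 2 stood above the other 5 libraries, which lay close together. The fold change was 0.826 (interval 0.640 to 1.07, adjusted p = 0.531), and its log2 value of -0.28 was -0.039 without WT replicate 2.

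Npr3 encodes the clearance receptor, which binds all 3 natriuretic peptides and takes them into the cell. It had the smallest spread of the 9 genes, with an SD of 0.10 on the log2 scale over the 6 libraries. It measured 53.0, 49.2 and 47.4 CPM in WT and 51.5, 43.2 and 48.4 CPM in CharmeKO. The groups overlapped, and the interval of the fold change was narrow, from 0.804 to 1.13 around 0.955 (adjusted p = 0.857). Its log2 fold change of -0.066 was 0.0026 without CharmeKO replicate 2. Within a library, the log2 ratio of Npr3 to Npr1 reads was -1.92, -2.45 and -2.02 in WT and -1.75, -2.32 and -2.14 in CharmeKO. The group means differed by 0.058 (two-sided exact permutation test, p = 0.8, where 3 against 3 libraries cannot go below 0.1), and this difference was -0.10 when either WT replicate 2 or CharmeKO replicate 1 was left out. Per length, Npr3 stood at 0.0934 to 0.151 times the level of Npr1. The 5 epicardial markers summed to 56.9 to 71.4 CPM in WT and 34.0 to 40.6 CPM in CharmeKO, with Wt1 past the test. Most of that sum was Wt1, at 46.1 to 53.5 CPM in WT and 31.2 to 33.3 CPM in CharmeKO. Upk3b, Upk1b, Msln and Krt19 had lower means in CharmeKO with overlapping groups. The part of these markers in the natriuretic receptor values was not tested.

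The mRNAs of the peptides were low in these libraries. Nppa, the atrial peptide of cardiomyocytes, had 1.08, 2.85 and 0.430 CPM in WT and 3.53, 1.43 and 1.87 CPM in CharmeKO, with overlapping groups (log2 fold change 0.58 ± 0.57, adjusted p = 0.739). The log2 value ranged from 0.13 without CharmeKO replicate 1 to 1.43 without WT replicate 2. Nppc, the C-type peptide, had 2.94, 2.13 and 1.51 CPM in WT against 1.71, 0.859 and 1.25 CPM in CharmeKO (-0.81 ± 0.42, adjusted p = 0.450). CharmeKO replicate 1 lay above WT replicate 3 for Nppc, so these groups overlapped too. Nppb and Ostn, a ligand of the clearance receptor, did not pass the filter on low counts. Cardiomyocyte markers were present, and 3 of 8 passed the test, all higher in CharmeKO. The list summed to 343 to 440 CPM in WT and 518 to 807 CPM in CharmeKO. For 7 of the 8 every CharmeKO library lay above every WT library, beside 18.2% of all tested genes without overlap. Actc1 overlapped between groups (fold 1.04, edgeR adjusted p = 0.957). The part of these markers in the Nppa values was not tested.

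Among the 4 enzymes that process or degrade natriuretic peptides, 0 passed the test. Mme, encoding neprilysin, which cleaves natriuretic peptides, angiotensins and endothelin, measured 12.9, 22.9 and 17.7 CPM in WT and 27.1, 39.7 and 28.1 CPM in CharmeKO. Every CharmeKO library exceeded every WT library, at a log2 fold change of 0.83 ± 0.21 with an adjusted p of 0.134. Furin, a protease that cuts the B-type precursor, measured 184, 248 and 226 CPM in WT and 146, 177 and 175 CPM in CharmeKO, also without overlap (-0.40 ± 0.14, adjusted p = 0.270). This made 2 of the 4 without overlap, 1 higher and 1 lower, beside 18.2% of all tested genes. Mme passed the threshold with DESeq2 (adjusted p = 0.0173), with no gene filter (adjusted p = 1.46e-05) and without WT replicate 2 (adjusted p = 0.0177). With any other library left out its edgeR adjusted p lay between 0.133 and 0.492. Of the 10 genes of cyclic GMP signalling, including its kinases, phosphodiesterases and the soluble guanylyl cyclase, 0 passed, and 1 had an unadjusted p under 0.05. This was Gucy1a1, a subunit of the soluble cyclase, with 56.9, 56.6 and 39.8 CPM in WT and 85.8, 77.9 and 52.4 CPM in CharmeKO (0.49 ± 0.19, adjusted p = 0.308). CharmeKO replicate 3 lay below WT replicates 1 and 2. With no gene filter the adjusted p of Gucy1a1 was 0.0147, and with each library left out it ran from 0.0942 to 0.667.

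Ace encodes the enzyme that makes angiotensin II and degrades bradykinin, and in the heart it is found mainly on endothelial cells. It measured 714, 1009 and 1263 CPM in WT, and 546, 562 and 971 CPM in CharmeKO. CharmeKO replicates 1 and 2 lay below every WT library, while CharmeKO replicate 3 lay above WT replicate 1. Ace had the lowest fold change of the 9 genes, 0.696 (interval 0.479 to 1.01, log2 -0.52 ± 0.25, adjusted p = 0.410), and also the widest spread over all libraries, with an SD of 0.49 on the log2 scale. Its log2 fold change kept its sign with each library left out, between -0.85 and -0.31, and its adjusted p ran from 0.0329 with no gene filter to 0.795. The endothelial list of 8 had 0 genes past the test and summed to 6164 to 7743 CPM in WT and 6704 to 8113 CPM in CharmeKO. Kdr, Tek and Emcn, 3 of these 8, had every CharmeKO library above every WT library. Pecam1, Cdh5, Tie1, Flt1 and Egfl7 overlapped between groups, and Cdh5 and Tie1 had lower means in CharmeKO. Over all tested genes the groups did not overlap for 18.2%. The endocardial list of 6 summed to 716 to 834 CPM in WT and 514 to 609 CPM in CharmeKO, with Plvap past the test (-0.92 ± 0.14, adjusted p = 0.00791). Most of that sum was Vwf, at 575 to 688 CPM in WT and 398 to 496 CPM in CharmeKO, while Cytl1, Hapln1 and Smoc1 overlapped between groups and Cytl1 had a higher mean in CharmeKO. None of these 14 markers was at 0 in all libraries, and their part in the Ace values was not tested.

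Agtr1a, the type 1 receptor of angiotensin II, was the lowest of the 9 genes, with 20 to 134 reads per library. It measured 2.91, 5.09 and 2.15 CPM in WT, and 2.48, 2.53 and 3.32 CPM in CharmeKO. The highest and the lowest library were both WT. The fold change was 0.806, with an interval from 0.476 to 1.37 that covers a lower as well as a higher level (adjusted p = 0.774), and the log2 value of -0.31 became 0.10 without WT replicate 2. The second type 1 receptor gene, Agtr1b, had 3 reads in WT replicate 1 and none elsewhere. How many reads matched both of these similar genes could not be examined from gene-level counts. The type 2 receptor Agtr2 did not pass the filter, and Mas1, the receptor of angiotensin-(1-7), had no read in any library. This allows up to 0.0713 to 0.313 CPM depending on depth, here without TMM normalization.

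None of the other tested genes of the angiotensin axis passed. Of 12 converting and degrading enzymes, including Ace, 0 passed the test and 4 had a higher and 8 a lower mean in CharmeKO. Agt, the angiotensin precursor, lay between 0.108 and 1.10 CPM with overlapping groups (log2 fold change -0.33 ± 0.77, adjusted p = 0.899, and 0.53 without WT replicate 2). Ren1 did not pass the filter. The kinin receptors, whose ligand Ace degrades, were also low. Bdkrb2 measured 2.94, 4.60 and 3.76 CPM in WT and 2.23, 4.13 and 2.04 CPM in CharmeKO (-0.43 ± 0.35, adjusted p = 0.658). Bdkrb1 measured 0.258, 0.608 and 0.430 CPM in WT and 0.0698, 0.123 and 0.132 CPM in CharmeKO, without overlap but on few reads (-1.94 ± 0.87, adjusted p = 0.387).

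Edn1 encodes the precursor of endothelin-1. It measured 26.5, 19.4 and 21.8 CPM in WT and 33.2, 38.1 and 26.1 CPM in CharmeKO. CharmeKO replicates 1 and 2 lay above every WT library, and CharmeKO replicate 3 lay just below WT replicate 1, so the groups overlapped by this 1 pair. It had the highest fold change of the 9 genes, 1.43 (interval 1.11 to 1.85, log2 0.52 ± 0.17). Its unadjusted p was 0.010 and its adjusted p 0.239. With each library left out the log2 fold change stayed between 0.39 and 0.66, and the adjusted p ran from 0.109 to 0.640. With no gene filter the adjusted p was 0.0271. Edn2 had no read in any library, with the same limits as Mas1, and Edn3 did not pass the filter, so endothelin-1 was the endothelin transcript that could be tested.

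Edn1 mRNA is made by endothelial cells and is quickly induced by stress, so markers of both are given beside it. The 6 capillary markers summed to 5800 to 9338 CPM in WT and 6899 to 10845 CPM in CharmeKO, with 0 past the test. Of these 6, Cd36 and Fabp4 had every CharmeKO library above every WT library, where groups did not overlap for 18.2% of all tested genes. Rgcc, Gpihbp1, Car4 and Aqp1 overlapped between groups, and Gpihbp1 and Car4 had lower means in CharmeKO. The 6 arterial markers summed to 732 to 1129 CPM in WT and 878 to 961 CPM in CharmeKO, with 0 past the test and overlapping groups. Of 12 genes of the dissociation response, 2 passed, both heat shock genes and both higher in CharmeKO: Hspa1a (1.30 ± 0.21, adjusted p = 0.0116) and Hspa1b (1.59 ± 0.27, adjusted p = 0.0176). The immediate early genes of that list, Fos and Egr1 among them, did not pass, and the list summed to 31158 to 45452 CPM in WT and 36275 to 40528 CPM in CharmeKO. The part of these markers in the Edn1 values was not tested.

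Ece1, the protease that releases active endothelin-1, was abundant, with 681, 863 and 697 CPM in WT and 797, 873 and 875 CPM in CharmeKO. WT replicate 2 lay among the CharmeKO libraries, and the other 2 WT libraries lay below all of them. The fold change was 1.14 (interval 0.923 to 1.40, adjusted p = 0.625). The related proteases were low. Kel, best known as an erythroid surface protease, had 0.305, 0.570 and 1.83 CPM in WT and 0.0698, 0.123 and 0.0986 CPM in CharmeKO, without overlap and on few reads (log2 fold change -3.05 ± 0.95, adjusted p = 0.218, and 0.0489 with DESeq2). Without WT replicate 3 the log2 value was -2.12 (adjusted p = 0.588). The 5 erythroid markers, with 0 past the test, summed to 26758 to 39184 CPM in WT and 24397 to 31724 CPM in CharmeKO, and their part in the Kel values was not tested.

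Ednra, the type A receptor found on fibroblasts and mural cells, measured 21.1, 20.6 and 15.9 CPM in WT and 21.7, 20.6 and 17.0 CPM in CharmeKO. The groups overlapped, with replicate 3 lowest in both. The fold change was 1.02 (interval 0.806 to 1.29, adjusted p = 0.960), and its log2 value of 0.030 became -0.077 without WT replicate 3 and -0.038 without CharmeKO replicate 1. Of the mural markers, 0 of 8 pericyte and 0 of 6 smooth muscle markers passed the test. The pericyte list summed to 1134 to 1307 CPM in WT and 864 to 1095 CPM in CharmeKO, and the smooth muscle list to 1111 to 1237 CPM and 1076 to 1377 CPM. In CharmeKO, 7 pericyte markers were lower and 1 higher, whereas 5 smooth muscle markers were higher and 1 lower. Groups did not overlap for 3 pericyte markers, all lower, and 3 smooth muscle markers, 2 higher and 1 lower, beside 18.2% of all tested genes. The part of these mural markers in the Ednra values was not tested.

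Ednrb, the type B receptor of endothelial and stromal cells, measured 76.7, 87.9 and 48.7 CPM in WT and 72.3, 90.6 and 78.4 CPM in CharmeKO. WT replicate 3, the shallowest library, was the lowest and the other 5 libraries overlapped. The fold change was 1.12 (interval 0.850 to 1.49, adjusted p = 0.766), and its log2 value of 0.17 became -0.033 without WT replicate 3. Within a library, the log2 ratio of Ednra to Ednrb reads was -1.86, -2.09 and -1.61 in WT and -1.74, -2.14 and -2.21 in CharmeKO. The group means differed by -0.17 (two-sided exact permutation test, p = 0.5, smallest possible 0.1), and by -0.048 without WT replicate 3 and -0.31 without CharmeKO replicate 1. Per length, Ednra stood at 0.169 to 0.255 times the level of Ednrb.

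Downstream of the angiotensin and endothelin receptors, 0 of 19 genes of Gq coupling and desensitization passed the test. Rgs2, which limits Gq signalling, measured 16.4, 14.6 and 19.7 CPM in WT and 21.3, 20.0 and 21.8 CPM in CharmeKO, without overlap (log2 fold change 0.33 ± 0.15, adjusted p = 0.377). Itpr3, a calcium release channel, measured 137, 159 and 123 CPM in WT and 122, 107 and 114 CPM in CharmeKO, also without overlap (-0.29 ± 0.13, adjusted p = 0.374). The groups did not overlap for 3 of the 19, 1 higher and 2 lower in CharmeKO, beside 18.2% of all tested genes. The remaining 17, which include the third gene without overlap, had unadjusted p-values of at least 0.05.

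Of 9 genes that angiotensin II or endothelin-1 is known to induce in fibroblasts, 8 could be tested and 0 passed, with 4 higher and 4 lower in CharmeKO. Nox4, an oxidase that makes hydrogen peroxide, came nearest. It measured 5.22, 3.61 and 3.33 CPM in WT and 9.88, 8.30 and 7.89 CPM in CharmeKO, every CharmeKO library above every WT library. Its log2 fold change was 1.07 ± 0.23 with an adjusted p of 0.0696. DESeq2 gave an adjusted p of 0.00579, and edgeR with no gene filter gave 0.00218. With each library left out the edgeR adjusted p of Nox4 ran from 0.0634 to 0.325. Tgfb1 had every CharmeKO library below every WT library (-0.27 ± 0.13, adjusted p = 0.410). With Nox4 this made 2 of the 8 without overlap, beside 18.2% of all tested genes. The connective tissue growth factor gene Ccn2 was at -0.34 ± 0.18 (adjusted p = 0.453), so members of this list lay on both sides of 0. Tgfb1 and Ccn2 were named after their values were seen.

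Over the whole list of 79 genes from these pathways, 70 were tested and 0 passed the threshold. Unadjusted p-values under 0.05 were found for 9 of the 70, 5 higher and 4 lower in CharmeKO, beside the 12.8% of all tested genes. The groups did not overlap for 10 of the 70, 3 higher and 7 lower, beside the 18.2% of all tested genes. The means were higher for 35 and lower for 35, and the median log2 fold change was 0.0016. Without WT replicate 2 the number past the threshold was 2 of 68, Mme and the matrix gene Postn, beside 349 of 15522 tested genes. Postn was named after its values were seen.

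**Figure D3:**
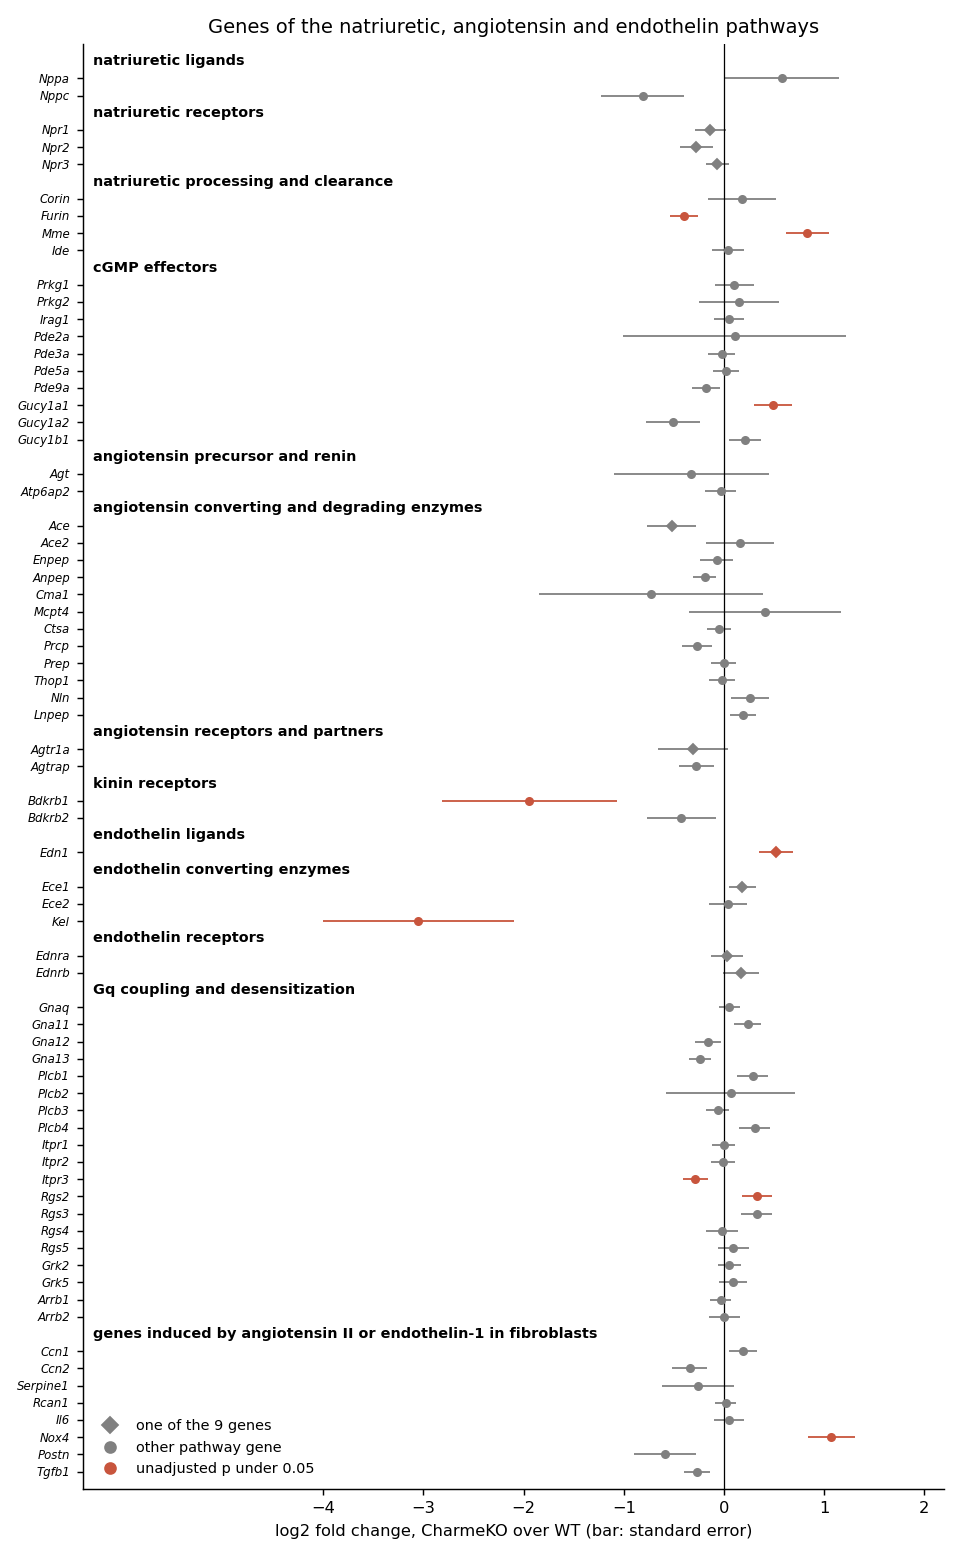
Log2 fold change (CharmeKO over WT, from edgeR) with its standard error for the 70 tested pathway genes, ordered by role, with diamonds for the 9 genes and red for an unadjusted p under 0.05. Points lie on both sides of 0 in equal number (35 and 35), none passed the adjusted threshold, and the long bars of Kel, Bdkrb1 and Pde2a belong to genes with few reads.

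**Figure D4:**
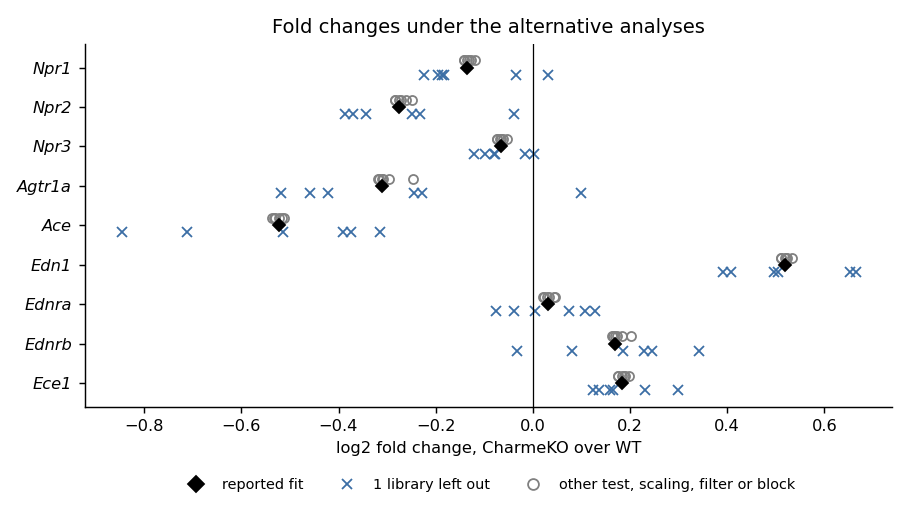
Log2 fold change (CharmeKO over WT) of the 9 genes in the reported fit (black diamond), with 1 library left out (blue cross, 6 per gene) and with another test, scaling, gene filter or the replicate block (grey circle). Ace stays between -0.85 and -0.31 and Edn1 between 0.39 and 0.66, while the crosses of Npr1, Npr3, Agtr1a, Ednra and Ednrb fall on both sides of 0.

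Among the 9 genes, 4 had an SD over the 6 libraries of at least 0.3 on the log2 scale, and for each the genes with the most similar pattern were sought among 8911 genes with a mean of at least 10 CPM. Likeness was the root-mean-square difference of log2 CPM centred on each gene's own mean, over the 6 libraries. The pattern of Ace, high in WT replicates 2 and 3 and in CharmeKO replicate 3, was nearest in Cables1 (difference 0.0942), followed by Cyb561 (0.135) and Spsb1 (0.137). The pattern of Edn1 was nearest in Zfp397 (0.0636), Gulp1 (0.0739) and Snrnp27 (0.0762). Ednrb, low in WT replicate 3, was nearest to Acaa2 (0.0549) and Acad8 (0.0622), 2 genes of mitochondrial acyl-CoA metabolism, and to Zscan29 (0.0844). Agtr1a, high in WT replicate 2, was nearest to Ap5z1 (0.146), the arterial endothelial marker Sox17 (0.158) and Slc27a1 (0.162). These are descriptions over 6 points, with no test.

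**Figure D5:**
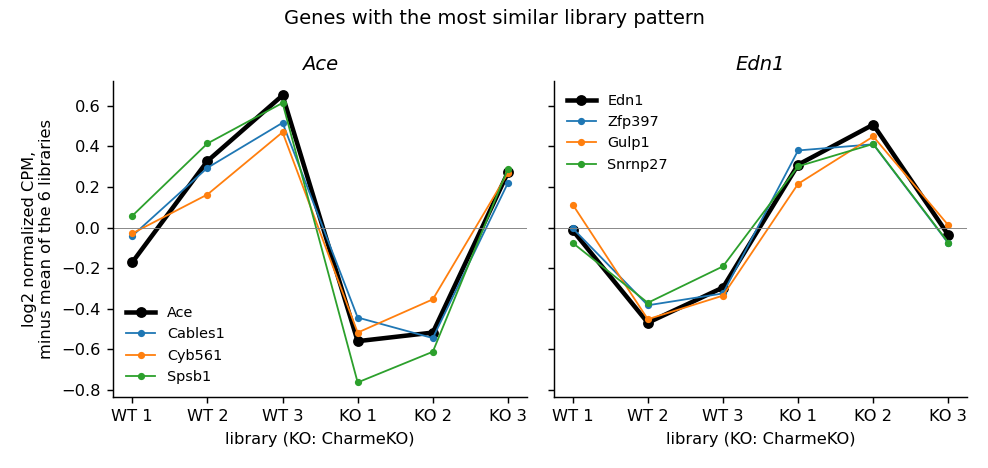
Log2 normalized CPM of Ace (left) and Edn1 (right) with the 3 genes of most similar pattern each, after subtraction of each gene's mean over the 6 libraries; lines join the libraries for reading only. The Ace group is highest in WT replicate 3 and low in CharmeKO replicates 1 and 2, and the Edn1 group is highest in CharmeKO replicates 1 and 2.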

How the data were processed

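Native CF libraries (3 WT, 3 CharmeKO) were analysed from the gene-level counts deposited by the authors, who aligned quality-filtered Illumina reads with STAR, counted reads on the reverse strand with its gene counting mode, and used an Ensembl annotation to which Charme had been added. The methods and the submitters' processing notes name different annotation and assembly versions (the notes list GRCm39 and GRCh38), so no coordinates are given. Of the 9 genes, 6 share exon bases with genes on the opposite strand only, which strand-specific counting separates.

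The filter kept a gene when 2 or more libraries held 10 or more counts. These genes were tested with edgeR 4.0.16 (R 4.3.3): TMM scaling, quasi-likelihood F test, Benjamini-Hochberg adjustment over 15789 genes, threshold 0.05. Confidence intervals are 95%. DESeq2 1.42.0, other scalings and filters, a replicate block and leaving out each library were alternatives, and the script was tested on simulated data. CPM are TMM-normalized. CPM per kb used the union of exons of all isoforms in GENCODE M21 (GRCm38, another build). Depth was 9595701 to 42101393 counts, where 3 counts equal 0.0713 to 0.313 CPM of the raw library total, without the TMM factor. Such floors cover counting error only. No libraries were found to be duplicates.

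The text names the 9 genes; of a list of 79 pathway genes, those past the threshold, those with unadjusted p under 0.05, and the tested ligands and receptors; and, for members with an SD of log2 CPM of at least 0.3, the 3 genes of most similar pattern. The members and all lists were chosen with earlier results of these data known. No set test was run. Figures were drawn with matplotlib 3.10.9.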

Additional observations from a re-analysis of the deposited data

How the results depend on the processing

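In the reported fit 131 of 15789 genes passed the threshold. DESeq2 gave 394 of 15789, no gene filter 699 of 24579 and the replicate block 302 of 15789. Leaving out each library gave 61 of 15451 (without CharmeKO replicate 1) to 349 of 15522 (without WT replicate 2). Of the 9 genes, 2 passed with no gene filter (Ace and Edn1) and 0 under every other alternative run. Of the pathway list, 3 of 70 passed with DESeq2 (Mme, Kel and Nox4) and 6 of 77 with no gene filter. The replicate block gave 3 of 70 (Mme, Nox4 and Gucy1a1), and a library left out gave 0 to 2 (2 of 68 without WT replicate 2). The causes were not tested. The median log2 fold change with a library left out ran from -0.099 to 0.073 for the 9 genes and from -0.021 to 0.055 for the pathway list. The sign turned in at least 1 of these fits for Npr1 (-0.22 to 0.030), Npr3 (-0.12 to 0.0026), Agtr1a (-0.52 to 0.10), Ednra (-0.077 to 0.13), Ednrb (-0.033 to 0.34), Agt (-0.70 to 0.53) and the ratio of Npr3 to Npr1 (-0.10 to 0.18), but not for Npr2 (-0.39 to -0.039) or the ratio of Ednra to Ednrb (-0.31 to -0.048). The other scalings turned the sign of none of the 22 genes refitted under them (the 9 genes, the pathway genes named by rule and Charme). Bdkrb1 has no value under filterByExpr or without WT replicate 1 or 2, where it did not pass the filter. Deviations of libraries with the same replicate number correlated at 0.216, 0.0535 and 0.161, so the numbers were not taken to pair the samples. Every library correlated best with its own number, which is a hint from the data and not from the design, and the block left 0 of the 9 genes past the threshold. The depth of WT replicate 3 (9595701 counts) limits Agtr1a (20 reads there) and Agt (1 read there).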

Other observations

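The gene next to Ace in RefSeq order among tested genes, Cyb561, which encodes an electron-transferring membrane protein of secretory vesicles, had the second most similar library pattern to Ace of 8910 genes compared. It measured 55.1, 62.9 and 77.8 CPM in WT and 39.3, 44.0 and 67.7 CPM in CharmeKO (log2 fold change -0.37, edgeR adjusted p = 0.466). The neighbour on the other side, Dcaf7, ranked 2199 of 8910. The neighbours were looked up after the likeness to Cyb561 had been seen. Whether reads pass from the one gene to the other could not be examined from gene-level counts.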
